A study of Mus musculus with 24 samples.

Results

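The spliceosomal small nuclear RNA (snRNA) genes described here are the rows of a mouse small RNA sequencing count table that GENCODE release M21 lists with the biotype snRNA and that held 50 or more counts summed over the 24 libraries. This rule kept 18 of the 1383 snRNA rows, out of 55335 rows in all. The members carried 86909 of the 87452 snRNA counts (99.4%) and 0.347% of all counts, and 114 other snRNA rows had between 1 and 49 counts. The members were chosen by their summed counts, so the size of these totals is a description and not a result. Just inside the threshold were Gm24497 with 62 counts and Gm22513 with 71, and just outside were Gm25189 with 44 and Gm26411 with 39. The mESC libraries supplied 80.4% of the members' counts and 78.0% of all counts.

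The study grew mESC, embryonic stem cells of the mouse, and derived from them NPC, neural progenitors, by culture in N2B27 medium and then with FGF and EGF. Each cell type had 6 genotypes of Htt, the gene mutated in Huntington's disease, with 2 libraries per genotype and 12 per cell type. The genotypes were wild type (WT), Htt knockout (KO), and heterozygous CAG knock-in at 4 repeat lengths, giving the lines Q20 and Q50 and the longer Q92 and Q111; the protocol gives Q92 as 89 repeats. Each repeat length is represented by a single line, so line and repeat length cannot be told apart, and the protocol does not say how the KO and WT lines relate to the series. The mESC were kept on a feeder layer of irradiated mouse fibroblasts with leukemia inhibitory factor. The design calls the libraries of a group biological samples without naming cultures, so the p-values measure the spread between those libraries.

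snRNAs are short, uridine-rich nuclear RNAs that, packed with proteins into snRNPs, recognise introns and catalyse their removal. In the major spliceosome U1 recognises the 5′ splice site and U2 pairs with the branch point. U4 and U6 then arrive paired to each other, together with U5, whose conserved loop holds the exon ends. A minor spliceosome uses U11, U12, U4atac and U6atac in place of U1, U2, U4 and U6, and shares U5. Most snRNAs are transcribed from several near-identical genes, and the best described sequence variants are those of U5, U1 and U2.

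By alignment to named snRNAs, 6 members were U5 genes, 5 were U2 genes, 2 were U1 genes and 2 were U4 genes. Rnu11 (U11), Rnu12 (U12) and Gm25541 (U6atac) were the only members of their families. U4 and U6atac have no gene with such a name in this annotation, and Gm24265 and Gm25541 were recognised by sequence. No U6 or U7 gene was a member: the 488 rows assigned to U6 held 97 counts together. The named gene Rnu1a1 had 1 count, Rnu2-10 had 3 and Rnu6 had 0. These have 6, 3 and 42 identical copies elsewhere in the annotated transcripts, and none of their 50-base windows is unique.

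All 6 U5 genes were 116 bases long. Rnu5g and Gm25313 lie within 5270 bases of chromosome 9 (GRCm38) on the minus strand, both within an intron of Parp16 on the other strand. A group of 3 genes, Gm25099, Gm23143 and Gm23287, lies within 21018 bases of chromosome 4 on the plus strand, outside annotated genes. Gm22265 lies alone on chromosome 1 on the plus strand, within an intron of Hhat on the other strand.

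For U2, the pair of genes with the most assigned counts is shown because both were lower in NPC. The sequences are the GENCODE M21 transcripts (GRCm38), written 5′ to 3′ as DNA, with capitals marking substitutions relative to Rnu2-10, the named U2 gene. Gm25360 lies at chr1:72226240-72226430 on the plus strand and Gm22973 at chr12:59040335-59040525 on the plus strand. Neither overlaps another annotated gene.

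Gm25360: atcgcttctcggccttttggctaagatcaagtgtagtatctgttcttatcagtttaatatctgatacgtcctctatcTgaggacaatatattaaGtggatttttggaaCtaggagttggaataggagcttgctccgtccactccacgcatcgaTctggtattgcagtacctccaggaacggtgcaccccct
Gm22973: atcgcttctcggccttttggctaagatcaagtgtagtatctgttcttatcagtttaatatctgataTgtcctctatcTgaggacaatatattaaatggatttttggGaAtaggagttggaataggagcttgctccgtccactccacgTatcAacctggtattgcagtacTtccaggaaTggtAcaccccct

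Gm22513, a U1 gene at chr12:54696782-54696945 on the plus strand, is shown because it differs from Rnu1a1 by a single substitution (capital), yet held 71 counts against 1 for Rnu1a1.

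Gm22513: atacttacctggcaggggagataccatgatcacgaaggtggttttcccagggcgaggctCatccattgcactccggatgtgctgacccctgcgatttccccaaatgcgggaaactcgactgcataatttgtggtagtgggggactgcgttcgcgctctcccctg

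How much of each gene a 50-base read can assign bears on every count that follows. Of the 67 windows of 50 bases in a U5 gene, all 67 were found in no other annotated transcript for Gm22265, 46 for Gm23287, 34 for Gm25099 and 33 for Gm23143. For Rnu5g and Gm25313 only 12 of 67 were unique, those starting at bases 56 to 67. Gm25360 had 88 of 142 unique windows and Gm22973 had 125. None of the 85 windows of Rnu11 was unique although it held 2045 counts, and Rnu12 had 47 of 102. The search covered both strands, and Rnu11 lies over an exon of Gm28872 on the other strand, a gene with 0 counts. Matches to such an antisense transcript of the same locus were not separated from copies elsewhere. With windows of 30 bases smaller shares were unique. These were 74 of 87 for Gm22265 and 12 of 87 for Rnu5g and for Gm25313. Gm25360 had 60 of 162, Gm22973 89 of 162 and Rnu12 15 of 122. How reads that match several genes were counted is not given in the sources used here, so a count is that of reads assigned to a gene and a level may miss part of its RNA.

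**Figure D1:**
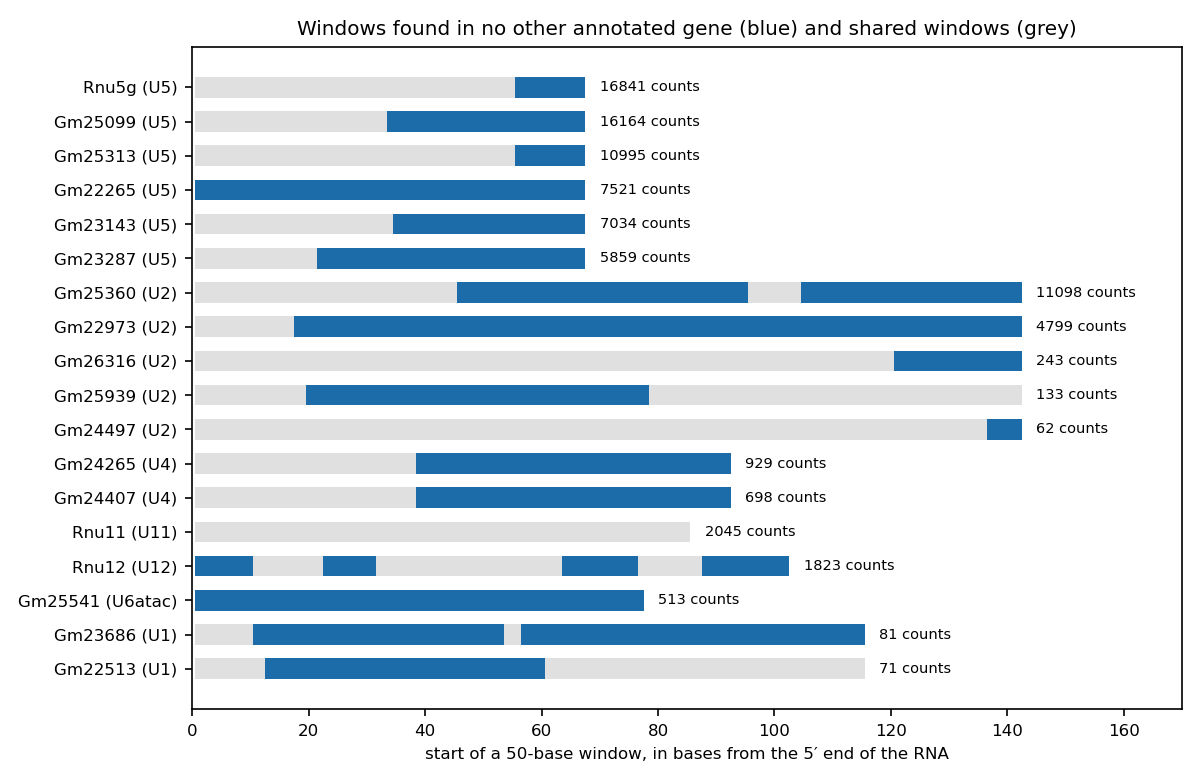
Positions of 50-base windows that occur in no other annotated transcript (blue) within all windows of each of the 18 genes (grey); the x axis is the window start in bases from the 5′ end, and the summed count stands beside each bar. Every 50-base window of Gm22265 is unique, whereas those of Rnu5g and Gm25313 are unique only near the 3′ end.

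Library totals ran from 642384 to 2360434 counts in mESC and from 342022 to 682113 in NPC. The members' share of a library had a median of 0.339% in mESC (0.196% to 0.685%) and of 0.286% in NPC (0.248% to 0.426%). Of the marker lists, 11 ES cell microRNAs summed to 1231 to 3708 CPM (a gene's count per 1e6 counts of a library, the library total scaled by edgeR's TMM method) in mESC. In NPC they had 432 counts in the 2 Q20 libraries and 1 count in the 10 others. The 8 neural progenitor mRNAs summed to 2.60 to 18.3 CPM in mESC and 105 to 299 CPM in NPC. Feeder fibroblast mRNAs summed to at most 1.44 CPM in mESC, and 6 of the 8 were at 0 there. In NPC they summed to at most 11.8 CPM, with 3 of the 8 at 0. Counts on mRNAs were low in general: the 8 ES cell mRNAs summed to 24.8 to 69.4 CPM in mESC. The low feeder values therefore cannot show that feeder RNA was absent. In bulk libraries, fewer cells of a type and less RNA per cell cannot be told apart.

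The U5 genes did not move together between cell types: 4 of the 6 were lower in NPC (Gm25313 with TMM scaling but not with library totals) and the most abundant pair was not called. Of the 904 genes tested, 528 (58.4%) differed between NPC and mESC at an adjusted p under 0.05, 30.4% higher and 28% lower in NPC. Among the members, 16 passed the filter on low counts (all but Gm23686 and Gm24497) and 9 were called, 7 lower and 2 higher, a share near that of all genes. Of the 9, Gm26316 passed the filter only through mESC libraries and Gm22513 only through NPC libraries, so each was tested because of the cell type where it is high, and their calls are no support. The median log2 change was -0.36 over the 16 and -0.02 over all genes tested.

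Gm22265, the U5 gene with all its 50-base windows unique, separated the cell types completely. In mESC its 12 libraries ran from 225 to 827 CPM with a median of 396. In NPC they ran from 29.9 to 184 CPM with a median of 79.1. Every NPC library was below every mESC library. How many of all genes tested separated this fully, as Gm22265 and Gm22973 did, was not counted. The mean was 416 ± 165 CPM (SD, n = 12) in mESC and 91.8 ± 54.7 (SD, n = 12) in NPC, a fitted log2 change of -2.34 ± 0.20 (SE; adjusted p = 1.06e-09), or 5.07-fold lower.

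The chromosome 4 group split. Gm23143 had a median of 307 CPM in mESC (178 to 893) and 127 CPM in NPC (47.3 to 206), and Gm23287 had 326 CPM (123 to 605) and 103 CPM (49.6 to 195). Their log2 changes were -1.52 ± 0.17 (adjusted p = 9.97e-08) and -1.67 ± 0.24 (adjusted p = 2.67e-06). For Gm23143, 11 of 12 NPC libraries lay below all mESC libraries, and for Gm23287 9 of 12 did. Their neighbour Gm25099 had 661 CPM in mESC (453 to 1283) and 698 CPM in NPC (370 to 1023), with overlapping groups and a log2 change of -0.05 (95% interval -0.41 to 0.31). The size for Gm23143 rested on the other genotypes: the WT libraries held 185 and 178 CPM in mESC against 147 and 140 in NPC. In a fit of the 4 WT libraries its log2 change was -0.20 and it was not called.

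The chromosome 9 pair moved less. Rnu5g had a median of 671 CPM in mESC (345 to 1629) and 816 in NPC (452 to 1255), and its log2 change of 0.01 had a 95% interval of -0.49 to 0.51. Gm25313 had 530 CPM (307 to 1129) and 353 CPM (219 to 600), a change of -0.55 ± 0.20 (adjusted p = 0.0216). With library totals in place of TMM scaling, which raises the median of all genes by 0.34 on the log2 scale, Gm25313 was no longer called at -0.23 (adjusted p = 0.405), and Gm25099 stood at 0.28, on the other side of 0.

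**Figure D2:**
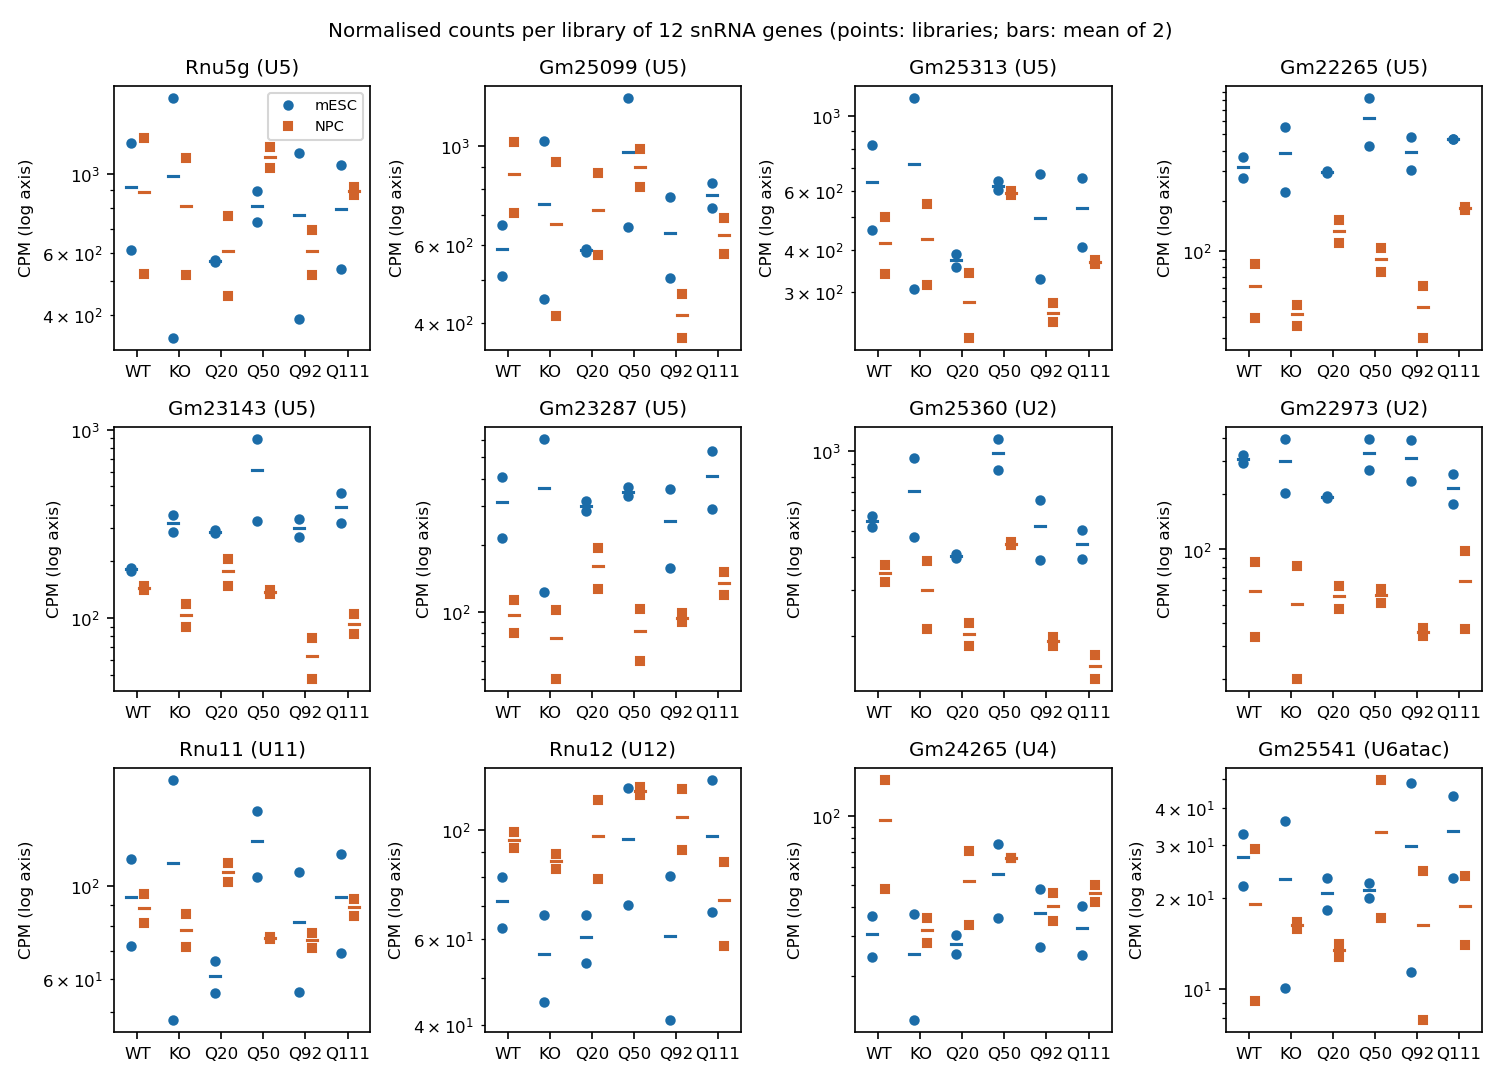
Normalised counts (CPM, log axis) of 12 snRNA genes in each library by Htt genotype, mESC as blue circles and NPC as orange squares, with a bar at the mean of the 2 libraries of a group. The cell types do not overlap for Gm22265 and Gm22973, and overlap throughout for Rnu5g.

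Seen as shares of the counts on the 6 U5 genes, which no scaling of whole libraries alters, Gm22265 supplied 9.98% to 17.4% in mESC (median 12.7%) and 1.68% to 8.09% in NPC (median 3.09%). The ranges did not overlap. The 95% Wilson interval, which covers counting error only, was 9.05% to 10.99% for the lowest mESC share (368 of 3687 counts) and 6.42% to 10.1% for the highest NPC share (67 of 828), so these extremes are within counting error of each other. Rnu5g supplied a median of 25.4% in mESC and 38.4% in NPC, Gm25099 23.3% and 30.8%, and Gm25313 17.3% and 17.6%. Gm23143 supplied 10.9% and 4.71%, and Gm23287 10.2% and 4.91%. A share rises when another falls, so the 6 values are not independent. By 50-base windows, the uniquely assignable part of Gm22265 spans the whole RNA and that of Rnu5g only its 3′ part. Whether reads lay at other positions in NPC was not tested.

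**Figure D3:**
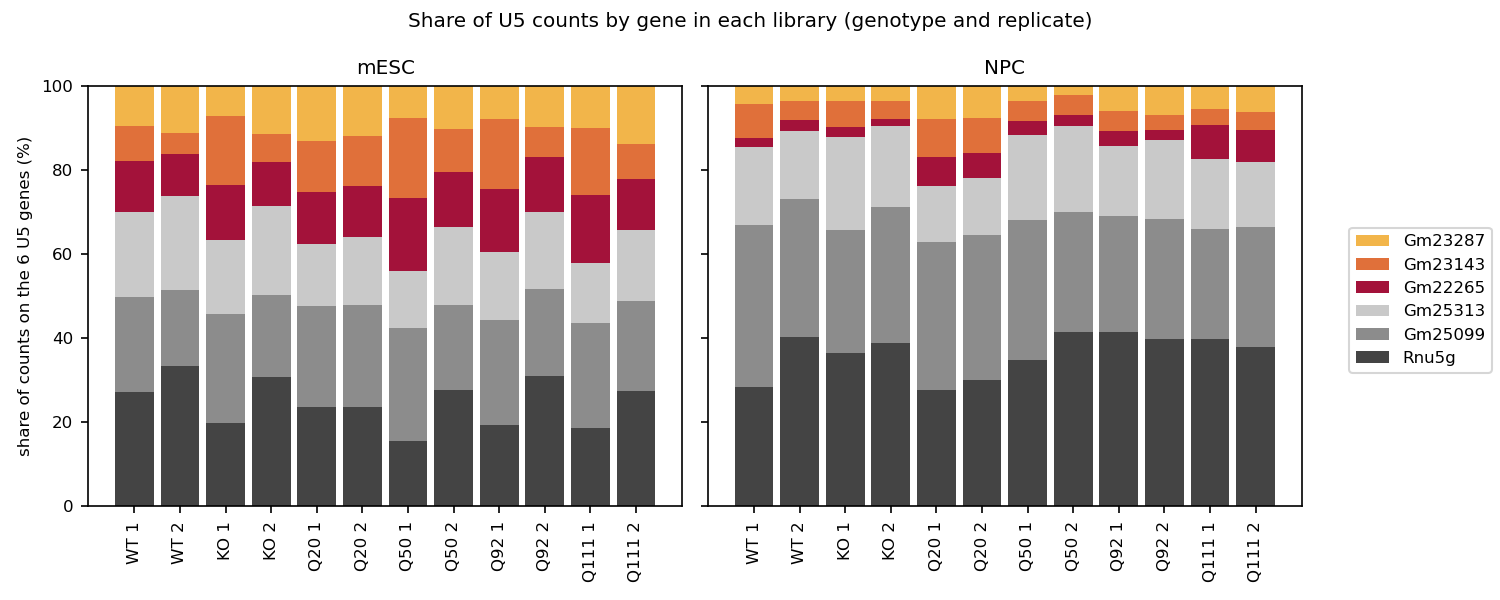
Share of the counts on the 6 U5 genes held by each gene in each library (stacked bars, %; genotype and replicate on the x axis), mESC on the left and NPC on the right. The share of Gm22265 lies between 9.98% and 17.4% in mESC, highest in a Q50 library. In NPC it lies between 1.68% and 8.09%, and there it is highest in the Q20 and Q111 lines.

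Of the genes for U2, the branch point snRNA, the 2 with the most assigned counts were lower in NPC. Both differ in sequence from Rnu2-10, which has 0 unique windows among its 142 of 50 bases. The level of U2 RNA as a whole was therefore not measured. Gm22973 ran from 177 to 396 CPM in mESC and from 19.8 to 97.8 CPM in NPC, without overlap, with a log2 change of -2.35 ± 0.23 (adjusted p = 1.06e-08). Gm25360 had a median of 512 CPM in mESC (387 to 1114) and 219 CPM in NPC (137 to 454), a change of -1.17 ± 0.16 (adjusted p = 1.05e-06), with 10 of 12 NPC libraries below all mESC libraries. In the 4 WT libraries alone Gm25360 was at -0.53 and not called. Of the counts on the 5 U2 genes, Gm25360 held a median of 66.0% in mESC and 79.6% in NPC, and Gm22973 31.6% and 16.6%. Gm26316, at 9 to 43 counts per mESC library and 0 to 5 per NPC library, had a fitted change of -1.21 ± 0.32. It reached the filter's level of 15.1 CPM (10 counts at the median library total) in 4 mESC libraries and in 0 NPC libraries, so this value is a description. Gm25939, which with Gm25360 and Gm24497 spans 28959 bases of chromosome 1, was at -0.29 and not called.

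U4, which carries U6 into the spliceosome in an inactive pairing, is represented by a pair of genes within 936 bases of chromosome 5 that differ by G88A and C99A (Gm24265 first, positions from its 5′ end). Gm24265 had a median of 33.1 CPM in mESC (12.7 to 75.5) and 47.2 CPM in NPC (27.8 to 144), a change of 0.64 ± 0.23 (adjusted p = 0.0233). This call was lost in 24 of 32 alternatives, and without WT NPC replicate 1, which held the highest value, the change was 0.30 (adjusted p = 0.286). Gm24407 stood at 0.04 ± 0.24 and was not called. The NPC and mESC libraries overlapped for both genes.

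The members of the minor spliceosome were not called between cell types. Rnu11, which recognises the 5′ splice site of minor introns, had a median of 88.3 CPM in mESC (47.8 to 179) and 83.0 CPM in NPC (71.1 to 113), a change of -0.13 (95% interval -0.55 to 0.30). It lies at chr4:132270080-132270213 on the minus strand, over an exon of the non-coding gene Gm28872 on the other strand. Rnu12, which pairs with their branch point, had 67.6 CPM (41.0 to 126) and 91.6 CPM (58.1 to 122), a change of 0.41 ± 0.18 (adjusted p = 0.0571). It passed the threshold with library totals, at 0.73 (adjusted p = 0.00525). Gm25541 (U6atac) had 23.0 CPM (10.1 to 48.2) and 16.3 CPM (7.88 to 49.4), a change of -0.43 ± 0.30 (adjusted p = 0.223).

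U1, which recognises the 5′ splice site, was nearly absent from the counts: its 54 rows held 329 counts. Gm22513 had 23 counts over the 12 mESC libraries (0 to 4 each) and 48 over the 12 NPC libraries (1 to 10 each). Its normalised level was 1.46 ± 0.83 CPM (SD, n = 12) in mESC and 8.52 ± 6.34 (SD, n = 12) in NPC, a fitted change of 2.42 ± 0.40. By deposited counts over library totals it reached 15.1 CPM in 2 NPC libraries and in 0 mESC libraries, so this value too is a description. In 11 of 12 NPC libraries it was above every mESC library, which is part of the same description. A count of 3 stands for 1.38 to 4.31 CPM in the mESC libraries and for 4.56 to 8.60 CPM in the NPC libraries. How many of all genes separated in this way was not counted. The highest levels of Gm22513, 23.5 and 17.2 CPM, were those of the Q50 NPC libraries. Gm23686, an intronic U1 gene of Cyp7b1, had 59 counts in mESC and 22 in NPC and was not tested here.

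**Figure D4:**
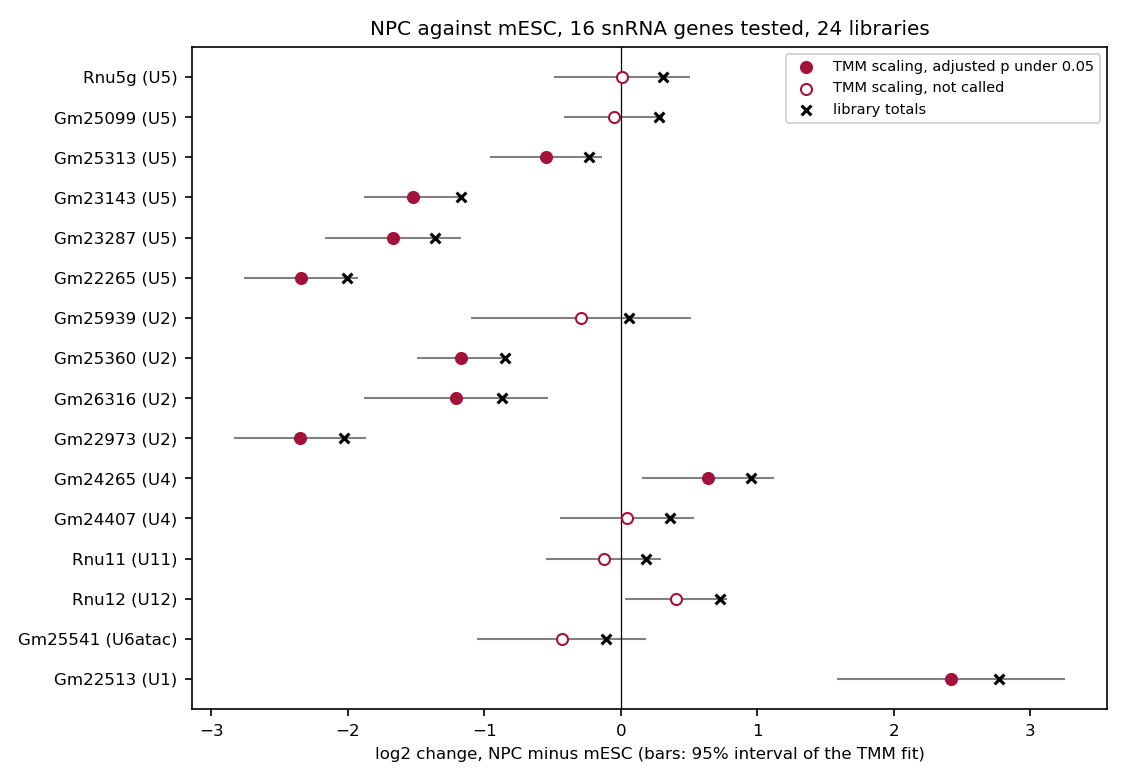
Log2 change of NPC against mESC for the 16 snRNA genes tested over 24 libraries, with 95% intervals (bars), filled circles where the adjusted p is under 0.05 and crosses for the value with library totals in place of TMM scaling. Gm26316 and Gm22513 entered the test only through the cell type where they are high. The U5 and U2 genes range from 0.01 (Rnu5g) to -2.35 (Gm22973).

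Per kilobase of RNA, a level that adjusts for gene length only, the U5 genes ranged in mESC from a median of 2647 CPM per kb for Gm23143 to 5783 for Rnu5g. In NPC they ranged from 682 for Gm22265 to 7037 for Rnu5g. Rnu11 had 659 and 620 CPM per kb in mESC and NPC, Rnu12 448 and 607, and Gm25541 182 and 129. In NPC the order ran from Rnu5g over Gm25099, Gm25313, Gm23143 and Gm23287 to Gm22265. Neighbours in that order overlapped in range, except that the lowest library of Gm25313 (219 CPM) lay above the highest of Gm23143 (206 CPM), genes of equal length. These levels also carry the unequal uniqueness of the genes, so they do not rank the amounts of the RNAs.

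Across Htt genotypes, 4 snRNA genes were called in NPC, a share no higher than that of all genes tested. In mESC none was called without a replicate block and 1 with it. In NPC, edgeR's joint quasi-likelihood test over the 6 genotypes called 4 of the 13 members tested (30.8%), against 37.2% of the 441 genes tested. In mESC it called 0 of 17, against 0.0566% of 1766 genes. DESeq2's likelihood ratio test also called 0 there. Only Gm25939 had an unadjusted p under 0.05 in edgeR's fit, at 0.00933. With the replicate number as a block Gm25939 was called (adjusted p = 0.0472), and 5 of the 17 members had an unadjusted p under 0.05.

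Gm22265 differed most clearly among the NPC lines. WT held 39.5 and 83.7 CPM, KO 35.7 and 47.7, Q20 111 and 153, Q50 104 and 74.5, Q92 61.8 and 29.9, and Q111 177 and 184 (adjusted p = 0.00132). The Q111 and Q20 libraries lay above all 8 others, so the levels did not follow repeat length. The share of U5 counts behaved alike, at 7.60% and 8.09% in Q111, 6.06% and 6.83% in Q20, and 1.68% to 3.68% in the 8 other libraries. The ES cell microRNAs were at 351 and 372 CPM in the Q20 NPC libraries and at 0 to 1 count in every other NPC library, Q111 included; their part in the Q20 level was not tested. In mESC the Gm22265 share was 12.1% and 12.4% in Q20 and 12.1% and 16.2% in Q111.

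Gm25360 (U2) was lowest in Q111, the line where Gm22265 was highest. WT held 371 and 320 CPM, KO 212 and 384, Q20 184 and 225, Q50 454 and 441, Q92 199 and 184, and Q111 137 and 170 (adjusted p = 0.00517). In TMM-scaled CPM both Q50 libraries were above all others and both Q111 libraries below all others. The place of Q50 depended on the scaling. Over unscaled library totals, KO replicate 2 (161 of 351955 counts) was above both Q50 libraries (193 of 472732 and 154 of 471465). The Q111 libraries stayed below all others. Gm22265 and Gm25360 were called in all 18 alternatives to this test.

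Gm23143 and Gm23287, the neighbours on chromosome 4, were called less firmly. Gm23143 had its lowest mean in Q92, at 78.8 and 47.3 CPM, and its highest in Q20, at 148 and 206 CPM, beside 147 and 140 CPM in WT (adjusted p = 0.0172). Gm23287 had 127 and 195 CPM in Q20, 119 and 151 in Q111 and 80.5 and 113 in WT (adjusted p = 0.0409). Without the Q20 group neither was called (adjusted p = 0.139 and 0.143), and leaving out the single library Q92 NPC replicate 2 left the calls of Gm22265 and Gm25360. Without WT NPC replicate 1 the count of members called was 7, and without WT NPC replicate 2 it was 9. Rnu5g (adjusted p = 0.0124 and 0.0177), Gm25099 and Gm25313 were among those added in each case.

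Against WT, the Htt knockout called no member in either cell type. In mESC edgeR called 0 of 17 members and 0 of 1766 genes (0%), with 0 members at an unadjusted p under 0.05; log2 changes ran from -0.51 to 0.87. The intervals were wide: Rnu5g held 345 and 1629 CPM in the KO libraries and 611 and 1220 in WT, a change of 0.13 with a 95% interval of -1.21 to 1.47. In NPC 0 of 13 members were called, against 1.36% of 441 genes (0.227% higher, 1.13% lower), and 2 had an unadjusted p under 0.05. These were the U4 genes Gm24265 (27.8 and 35.7 CPM in KO, 144 and 48.1 in WT; -1.54 ± 0.47, adjusted p = 0.118) and Gm24407 (-1.09 ± 0.46, adjusted p = 0.308). DESeq2 also called 0 in each cell type. With WT NPC replicate 2 left out, the WT replicate with the high U4 values stood alone, and 1 member, Gm24265, was called at -2.06 (adjusted p = 0.00377). The difference of the KO effects between cell types was called by edgeR for 0 of 16 members and 0 of 904 genes, and by DESeq2 for 0 members, with 1 member at an unadjusted p under 0.05.

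Q20, the line with the shortest repeat, was compared with WT in NPC. Gm22265 rose by 1.32 ± 0.38 on the log2 scale (adjusted p = 0.0316), the only one of 13 members called, against 12.7% of 441 genes (8.62% higher, 4.08% lower). The 2 Q20 libraries held 111 and 153 CPM and the WT libraries 39.5 and 83.7, without overlap. Of 18 alternatives, 11 lost the call, among them DESeq2's Wald test (adjusted p = 0.0664) and the fit of these 4 libraries alone (adjusted p = 0.139). Without WT NPC replicate 1 the change was 0.74 (adjusted p = 0.227).

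The change with CAG repeat length over the 4 knock-in lines was called for 0 of 16 members in mESC (0 of 1487 genes; 0 members at an unadjusted p under 0.05) and for 0 of 13 in NPC (6.45% of 403 genes, 2.73% with a positive and 3.72% with a negative slope; 1 member at an unadjusted p under 0.05) by edgeR. DESeq2 also called 0 in each. The NPC member with the smallest p was Gm23143, at -0.12 ± 0.04 per 10 repeats (log2; adjusted p = 0.122). Slopes of all 16 mESC members lay between -0.09 and 0.08 per 10 repeats. Without the Q20 group, Gm25360 was called in NPC at -0.21 ± 0.04 per 10 repeats (adjusted p = 0.0149). The interaction of slope and cell type was called by edgeR for 0 of 14 members, with 0 at an unadjusted p under 0.05 and 0 by DESeq2, against 1.51% of 663 genes (0.151% positive, 1.36% negative).

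Within mESC groups the replicates themselves stood far apart. Replicate 2 was higher than replicate 1 in 5 of 6 genotypes for Rnu5g, Gm25099, Gm25313, Gm25360 and Rnu11, whereas for Gm23143 it was higher in 1 of 6. The widest gap for Rnu5g was in the KO line (345 and 1629 CPM), and the Q20 line had the closest values (571 and 566 CPM). Over all genes tested, the deviations of same-numbered mESC libraries from their group means correlated at 0.41 to 0.52 in all 10 pairs of groups without Q20, and at 0.000145 to 0.0784 in the 5 pairs with Q20. Depth differed in the same lines. In WT, KO, Q50, Q92 and Q111 mESC, replicate 1 held 2.13e6 to 2.36e6 counts and replicate 2 held 6.42e5 to 1.15e6. The Q20 mESC libraries held 1.80e6 and 1.90e6. The part of depth in these deviations was not tested. The labels name no batch for the replicates.

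Genes of the proteins that bind these RNAs were read through small RNA counts on their rows, and no protein was measured. Of 48 listed snRNP protein genes, 6 passed the filter and 3 were lower in NPC, against 28% of all genes. Prpf8, the core U5 protein, was at -1.28 ± 0.25 (adjusted p = 0.000144), Snrnp200, the U5 helicase that unwinds U4 from U6, at -1.81 ± 0.45 (adjusted p = 0.00143), and Sf3b3 of the U2 snRNP at -0.60 ± 0.23 (adjusted p = 0.0312). Snrpb of the Sm ring, Sf3b1 and Eftud2 were not called. The 8 listed Sm ring genes together held 16347 to 53795 counts per mESC library and 7330 to 18977 per NPC library. Whether these reads are fragments of mRNA was not tested. The 11 listed U4/U6.U5 genes together held 41 to 146 counts per mESC library and 5 to 46 per NPC library. Of these, 3 passed the filter here, but only 1 passed it in the NPC libraries alone. Whether Prpf8 and Snrnp200 passed only through mESC libraries was not checked, so their calls are a description. None of the listed genes for snRNA transcription, export or assembly by the SMN complex passed the filter in this comparison. The scaRNAs, which guide chemical modification of snRNAs in Cajal bodies, went the other way: of 13 tested, 8 were higher in NPC, against 30.4% of all genes, and 1, Gm22728, was lower at -2.52. Scarna17 was highest at 1.82 ± 0.23 (adjusted p = 3.22e-07).

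Over the 24 libraries the genes most like Rnu5g in log2 CPM were the snoRNA gene Gm26397 (Pearson r = 0.83) and the mitochondrial mRNAs mt-Cytb (0.80) and mt-Nd4 (0.80). Those most like Gm25099 were Rpl7a (0.76), Snora23 (0.71) and Gm26493 (0.69). Those most like Gm25360 were Snord70 (0.90), n-R5-8s1 (0.83) and Snord82 (0.80). These values describe libraries that share depth and cell type, and within the 12 mESC libraries the last of them was 0.17.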

How the data were processed

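The authors deposited a single table of raw counts per gene, whole numbers for 55335 Ensembl genes in 24 columns. The submitters' processing notes name CASAVA 1.8, STAR, HTSeq and the genome build GRCm38.p6, with no settings. Reads were 50-base single reads per the labels' protocols. Columns named for 89 repeats were matched to the samples titled Q92, the line the protocol gives as 89 repeats. Biotypes, positions and sequences came from GENCODE M21, which matched 55154 rows.

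Counts were tested on the whole table with edgeR 4.0.16 (quasi-likelihood test, TMM scaling, filterByExpr with a minimum count of 10 and total of 15, Benjamini-Hochberg adjustment, call at an adjusted p under 0.05). The fits were also run on simulated counts with the same spread for all genes and independent libraries. That setting lacks the shared deviations of same-numbered mESC libraries, so it cannot show their effect. One fit of 24 libraries gave NPC against mESC; each cell type was fitted alone for genotypes, and the knock-in libraries for slopes per 10 repeats. CPM use TMM-scaled totals. Alternatives were DESeq2 1.42.0, other scalings, no filter, a replicate block, subsets and leaving out each library. Members were aligned with Biopython 1.88, with at least 80% identity for a family. Windows of 50 and of 30 bases were searched on both strands of all annotated transcripts.

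Named genes are members with a known snRNA symbol, the 12 with most counts and those called, and, for the 3 most abundant members, the 3 genes most alike in log2(CPM + 1). Gm25541, Gm25939, Gm23686 and Gm24497 were named after their values were seen. The sequences of the U5 genes are not reported here. The members and lists were chosen with earlier results of these data known.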

Additional observations from a re-analysis of the deposited data

Results flagged for a closer look

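Among the members' KO and Q20 contrasts with WT, 2 moved in opposite directions in the cell types, with every library of one group above or below every library of the other. With 2 libraries per group such separation can occur by chance. How many of all genes show it was not counted, so these 2 are a description. Gm23143 (U5) had means of 319 CPM in KO and 182 CPM in WT mESC, but 104 in KO and 144 in WT NPC, a difference between the contrasts of -1.28 on the log2 scale. By edgeR's interaction test over all genes this difference had an unadjusted p of 0.0423 and an adjusted p of 1.00, so it was not called. Rnu11 (U11) had means of 60.9 CPM in Q20 and 93.8 in WT mESC, but 108 in Q20 and 88.7 in WT NPC, a difference of 0.91. This difference was not tested.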

How the results depend on the processing

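No call between NPC and mESC reversed direction under any alternative run. Gm22265 and Gm22973 (lower in NPC) kept their calls under each alternative run. The count of 9 members called fell to 2 in the 4 WT libraries alone (Gm22265 at -2.26 and Gm22973, 13 tested), and leaving out single libraries gave 8 to 10. With no filter on low counts 13 of 18 members were called. For the NPC genotype test the count of 4 became 2 without the Q20 group and ranged from 2 to 9 over single libraries left out; for KO against WT in NPC it ranged from 0 to 1. For Q20 against WT in NPC the count of 1 became 0 with library totals, with no filter, with DESeq2's Wald test and in the fit of 4 libraries, and ranged from 0 to 3 over single libraries: 0 without either Q20, Q92 or Q111 library, 2 (Gm22265 and Gm25360) without either KO library, and 3 (Gm22265 and the U4 genes Gm24265 and Gm24407) without WT NPC replicate 2; without WT NPC replicate 1 the 1 call was that of Rnu5g. Where a library is left out, its partner is assumed to vary like the other groups. Without the Q20 group 1 member, Gm25360, was called for repeat length in NPC. The cause of these changes was not tested, beyond the fewer libraries fitted.

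Replicate numbers are not stated to mark a shared batch. Deviations of same-numbered libraries correlated above 0.1 in 10 of 15 pairs of groups in mESC (0.000145 to 0.516) and 4 of 15 in NPC (-0.0926 to 0.437), and not every pair exceeded 0.1. In mESC the 10 pairs without Q20 all did (0.41 to 0.52) and the 5 with Q20 did not, so same-numbered libraries of 5 of the 6 mESC lines deviated together. Replicate 1 was also the deeper library in each of these 5 lines, and not in Q20. The part of depth, and what else these libraries share, was not tested. The reported fits have no block. With a replicate block, 8 members were called between NPC and mESC (Gm25313 at -0.29 was lost), 4 across NPC genotypes and 1 for Q20; the count across mESC genotypes went from 0 to 1 (Gm25939), and the other counts stayed at 0.

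Depth limits the members of low count: in NPC 5 of the 18 did not pass the filter for genotype tests.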
